A study of Oryza sativa with 12 samples.

Results

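The unigenes (assembled transcripts) described here are those annotated to proline and glycine betaine metabolism in rice roots. A unigene was taken where its best hit in the NR protein database came from the genus Oryza and its NR or Swissprot description named a pyrroline-5-carboxylate (P5C) enzyme, proline dehydrogenase, ornithine aminotransferase, a proline transporter or betaine aldehyde dehydrogenase. This gave 34 of 182689 unigenes, or 34 of the 68051 with an Oryza hit. They comprised 4 P5C synthase, 2 P5C reductase, 1 P5C dehydrogenase, 4 proline dehydrogenase, 3 ornithine aminotransferase, 7 proline transporter and 9 betaine aldehyde dehydrogenase unigenes. The remaining 4 were acetylornithine aminotransferases, enzymes of arginine synthesis that met the rule only because their name contains the words ornithine aminotransferase.

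The roots came from rice labelled as wild type. They had been given 0.1 mM spermidine together with 100 mM NaCl (Spd+NaCl), 100 mM NaCl alone (NaCl), 0.1 mM spermidine alone (Spd), each for 72 h, or no treatment (untreated, with no time stated), with 3 poly-A RNA libraries per group. The labels do not say whether the 3 libraries of a group came from separate plants or cultures, so every p-value measures only the spread between these libraries, which may be technical. The comparisons ask how salt and the polyamine spermidine, alone and together, were accompanied by changes in root transcripts.

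Proline and glycine betaine are compatible solutes that many plants accumulate under salt or drought. Proline is made from glutamate by P5C synthase and P5C reductase and is broken down in mitochondria by proline dehydrogenase and P5C dehydrogenase, while ornithine aminotransferase feeds ornithine into the same P5C pool. Betaine aldehyde dehydrogenase oxidises betaine aldehyde to glycine betaine. Rice is known as a plant that accumulates little glycine betaine, and its betaine aldehyde dehydrogenase 2 also oxidises an aminoaldehyde whose build-up in fragrant varieties precedes the aroma compound.

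Levels are FPKM, a read measure scaled to transcript length and to the mapped fragments of the library, and can be compared between unigenes. FPKM summed to between 1312574 and 1371599 per library, and the read depth behind them is unknown. Within a group, the correlation of libraries across unigenes was 0.928 to 0.929 in NaCl and 0.85 to 0.902 in the other groups. Root marker transcripts (53 unigenes, all detected in at least 1 library) summed to 12979 to 18062 FPKM in Spd+NaCl, 10443 to 11185 FPKM in NaCl, 15459 to 16729 FPKM in Spd and 15108 to 19301 FPKM in untreated roots. Organelle-encoded transcripts (24 unigenes) summed to 103 to 190 FPKM in Spd+NaCl, 41.4 to 62.1 FPKM in NaCl, 187 to 252 FPKM in Spd and 159 to 198 FPKM in untreated roots. Shoot marker transcripts (37 unigenes) summed to 40.9 to 58.5 FPKM in Spd+NaCl, 38.6 to 292 FPKM in NaCl, 36.6 to 169 FPKM in Spd and 44.9 to 48.6 FPKM in untreated roots. The high ends were 1 library each, NaCl replicate 3 (292 FPKM beside 58.8 and 38.6) and Spd replicate 1 (169 FPKM beside 40.5 and 36.6). The NaCl libraries were thus the lowest for the root and organelle lists, and the part of this in the NaCl values below was not tested. In bulk roots, fewer cells of a type and less RNA per cell cannot be told apart.

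Of the 34 unigenes, 26 had a mean of at least 1 FPKM over the 12 libraries and were tested. The other 8 had means of 0.24 to 0.956 FPKM and no library above 2.4 FPKM. A betaine aldehyde dehydrogenase unigene lay just inside this limit at 1.05 FPKM and a proline transporter unigene just outside it at 0.956 FPKM. Changes are on the log2(FPKM + 1) scale, which understates the change of low unigenes, and are given with their standard error. Adjusted p-values are limma's with Benjamini-Hochberg adjustment over all unigenes tested, and a unigene was called at an adjusted p below 0.05.

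Proline dehydrogenase, the enzyme that starts proline breakdown, had higher transcript levels in NaCl than in any other group and its lowest summed level in Spd+NaCl. All 4 unigenes rose with NaCl, and all 4 were lower in Spd+NaCl than in NaCl alone. Over all unigenes tested, 22.9% were called between NaCl and untreated roots (10% higher, 12.9% lower) and 15.8% between Spd+NaCl and NaCl roots (8.63% higher, 7.18% lower). Both comparisons use the same 3 NaCl libraries. The 4 unigenes matched 1 TrEMBL entry and so may be pieces or variants of 1 gene, and they are not 4 independent observations.

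The most abundant of them, Cluster-52034.64020, stood at 17.74, 14.1 and 15.08 FPKM in the Spd+NaCl libraries. In the NaCl libraries it reached 84.94, 69.68 and 71.1 FPKM. It had 53.31, 54.18 and 36.34 FPKM in Spd libraries, against 34.04, 42.78 and 39.08 FPKM in untreated libraries. Every NaCl library was above every library of the other groups, every Spd+NaCl library was below them all, and the Spd and untreated libraries overlapped. Group means were 15.6 ± 1.88 FPKM in Spd+NaCl, 75.2 ± 8.43 FPKM in NaCl, 47.9 ± 10.1 FPKM in Spd and 38.6 ± 4.39 FPKM in untreated roots (SD, n = 3 each).

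This unigene rose with NaCl by 0.94 ± 0.16 on the log2 scale relative to untreated roots (limma, adjusted p = 0.00206). In Spd+NaCl its change relative to NaCl was -2.20 ± 0.16 (limma, adjusted p = 2.146e-05). It was also lower in Spd+NaCl than in untreated roots, with a change of -1.25 ± 0.16 (limma, adjusted p = 0.003855), and than in Spd roots, with a change of -1.54 ± 0.16 (limma, adjusted p = 0.0005598). Spermidine without salt gave 0.29 ± 0.16 relative to untreated roots, which was not called (limma, adjusted p = 0.526).

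**Figure D1:**
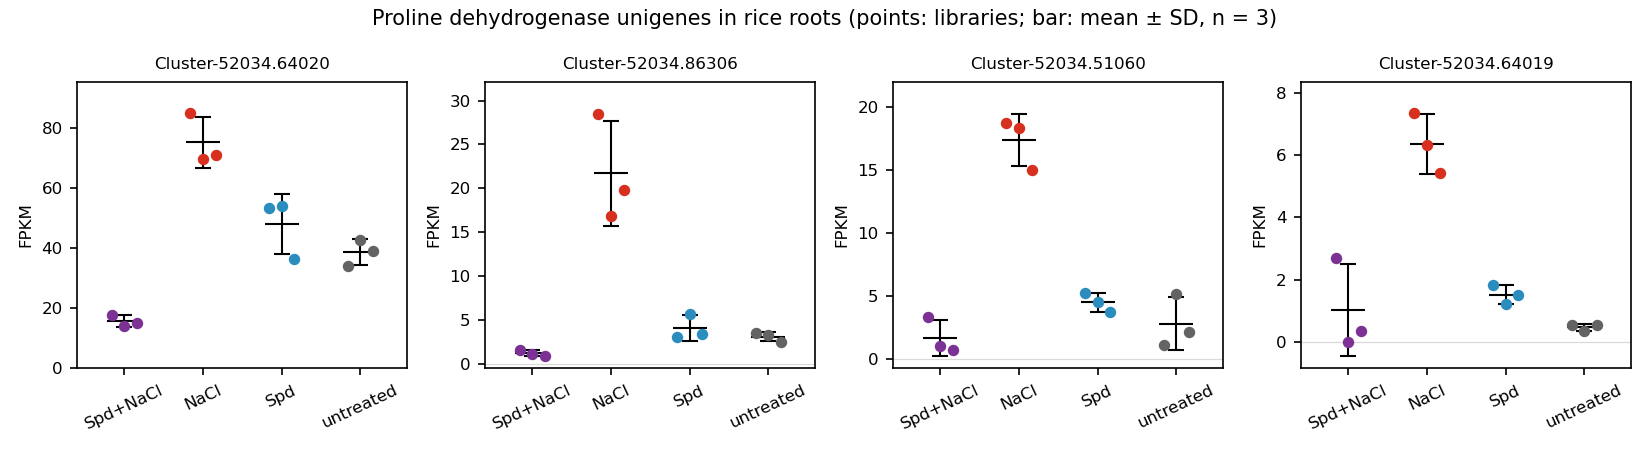
FPKM of the 4 proline dehydrogenase unigenes in each library (points), with the mean (long line) and SD (bars) of the 3 libraries of each group. In every panel the 3 NaCl libraries lie above all others, and in Cluster-52034.64020 the Spd+NaCl libraries lie below all others.

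The other 3 proline dehydrogenase unigenes were less abundant. Cluster-52034.86306 had 1.58, 1.15 and 0.91 FPKM in Spd+NaCl and 28.42, 16.86 and 19.79 FPKM in NaCl, then 3, 5.71 and 3.4 FPKM in Spd and 3.51, 3.21 and 2.5 FPKM in untreated libraries. Here too the NaCl libraries were the highest and the Spd+NaCl libraries the lowest. It rose by 2.45 ± 0.24 with NaCl relative to untreated roots (limma, adjusted p = 6.129e-05), and its change in Spd+NaCl relative to NaCl was -3.34 ± 0.24 (limma, adjusted p = 1.817e-05). Relative to Spd roots, Spd+NaCl gave -1.16 ± 0.24 (limma, adjusted p = 0.0162), a call lost without Spd+NaCl replicate 2 (adjusted p = 0.0624) or 3 (0.0662) and with only those 2 groups fitted (0.112), within a range of 0.00951 to 0.112 over 21 alternative settings. Relative to untreated roots, Spd+NaCl gave -0.88 ± 0.24, which was not called (limma, adjusted p = 0.0631). It was called under 3 of 21 alternatives, namely a pseudocount of 0.1 (-1.29, adjusted p = 0.0309), rice hits alone (0.0498) and leaving out Spd replicate 2 (0.0431), within a range of 0.0309 to 0.20.

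Cluster-52034.51060 had 3.35, 1.04 and 0.72 FPKM in Spd+NaCl and 18.73, 18.34 and 15.01 FPKM in NaCl, then 5.27, 4.5 and 3.72 FPKM in Spd and 1.13, 5.16 and 2.15 FPKM in untreated libraries. The Spd+NaCl and untreated libraries overlapped, and the NaCl libraries stood above all others. It rose by 2.40 ± 0.40 with NaCl (limma, adjusted p = 0.00175) and changed by -2.88 ± 0.40 in Spd+NaCl relative to NaCl (limma, adjusted p = 0.00095). Cluster-52034.64019 had 2.7, 0 and 0.36 FPKM in Spd+NaCl and 7.35, 6.32 and 5.43 FPKM in NaCl, then 1.83, 1.21 and 1.5 FPKM in Spd and 0.53, 0.34 and 0.55 FPKM in untreated libraries. It rose by 2.32 ± 0.40 with NaCl (limma, adjusted p = 0.00202) and changed by -2.10 ± 0.40 in Spd+NaCl relative to NaCl (limma, adjusted p = 0.0056). That last call was lost when only the NaCl and Spd+NaCl libraries were fitted (adjusted p = 0.0782, within a range of 6.998e-05 to 0.0782 over 20 alternatives).

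Spd+NaCl replicate 1 was the highest of its group for each of the 4 proline dehydrogenase unigenes. Without that library the changes in Spd+NaCl relative to NaCl were -2.29, -3.45, -3.29 and -2.65 for the 4 unigenes in the order given above, with adjusted p-values of 5.257e-05, 5.028e-05, 0.000393 and 6.998e-05 (limma). The spermidine response itself differed with salt. Taken as (Spd+NaCl minus NaCl) minus (Spd minus untreated), the difference between the salt and no-salt responses to spermidine was -2.48 ± 0.23 for Cluster-52034.64020 (limma, adjusted p = 0.000189) and -3.61 ± 0.34 for Cluster-52034.86306 (limma, adjusted p = 0.000202). It was -3.54 ± 0.57 for Cluster-52034.51060 (limma, adjusted p = 0.00352) and -2.86 ± 0.56 for Cluster-52034.64019 (limma, adjusted p = 0.00969). Over all unigenes tested, 10.9% were called for this difference, 4.18% above 0 and 6.68% below it.

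Delta-1-pyrroline-5-carboxylate synthase (P5C synthase) catalyses the rate-limiting step of proline synthesis from glutamate. Rice has a P5C synthase 1 and a P5C synthase 2 in Swissprot, and the unigene of the second had the larger change. Cluster-52034.72686, matched to P5C synthase 2, had 5.84, 7.43 and 7.02 FPKM in Spd+NaCl and 6.53, 7.64 and 7.22 FPKM in NaCl, then 1.75, 2.19 and 1.57 FPKM in Spd and 2.11, 2.68 and 3.37 FPKM in untreated libraries. Every library with NaCl, with or without spermidine, was above every library without it. It rose by 1.14 ± 0.16 with NaCl relative to untreated roots (limma, adjusted p = 0.000486) and by 1.45 ± 0.16 in Spd+NaCl relative to Spd (limma, adjusted p = 0.000602). It also rose by 1.07 ± 0.16 in Spd+NaCl relative to untreated roots (limma, adjusted p = 0.00583), a call lost when only those 2 groups were fitted (adjusted p = 0.0696, within a range of 0.00503 to 0.0696 over 21 alternatives). Spd+NaCl gave -0.07 ± 0.16 relative to NaCl (limma, adjusted p = 0.833), and the difference between the spermidine responses with and without salt was 0.31 ± 0.22 (limma, adjusted p = 0.425).

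Of the 3 unigenes matched to P5C synthase 1, 2 were tested, and they carried different Pfam domains, the amino acid kinase domain in Cluster-52034.59155 and the aldehyde dehydrogenase domain in Cluster-52034.70053. The enzyme has both domains, so the pair may be pieces of 1 transcript. Cluster-52034.59155 had 37.76, 40.69 and 42.72 FPKM in Spd+NaCl, 39.09, 42.93 and 41.25 FPKM in NaCl, 30.38, 33.69 and 36.21 FPKM in Spd and 29.78, 32.12 and 36.76 FPKM in untreated libraries. The NaCl libraries were all above the untreated ones. It rose by 0.32 ± 0.10 with NaCl (limma, adjusted p = 0.0411), a call lost under 10 of 22 alternatives, over which the adjusted p ran between 0.00466 and 0.128. It was lost without any 1 NaCl library, without untreated replicate 1 or 2 and without Spd+NaCl replicate 2. Cluster-52034.70053 had 48.35, 57.31 and 63.93 FPKM in Spd+NaCl, 46.97, 64.57 and 55.9 FPKM in NaCl, 39.35, 49.14 and 52.16 FPKM in Spd and 50.46, 54.39 and 48.92 FPKM in untreated libraries. Its groups overlapped, and NaCl gave 0.11 ± 0.15 relative to untreated roots, not called (limma, adjusted p = 0.663). At 32.9 to 56.5 FPKM in group means, the 2 tested P5C synthase 1 unigenes were several times as abundant as P5C synthase 2, whose group means were 1.84 to 7.13 FPKM.

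**Figure D2:**
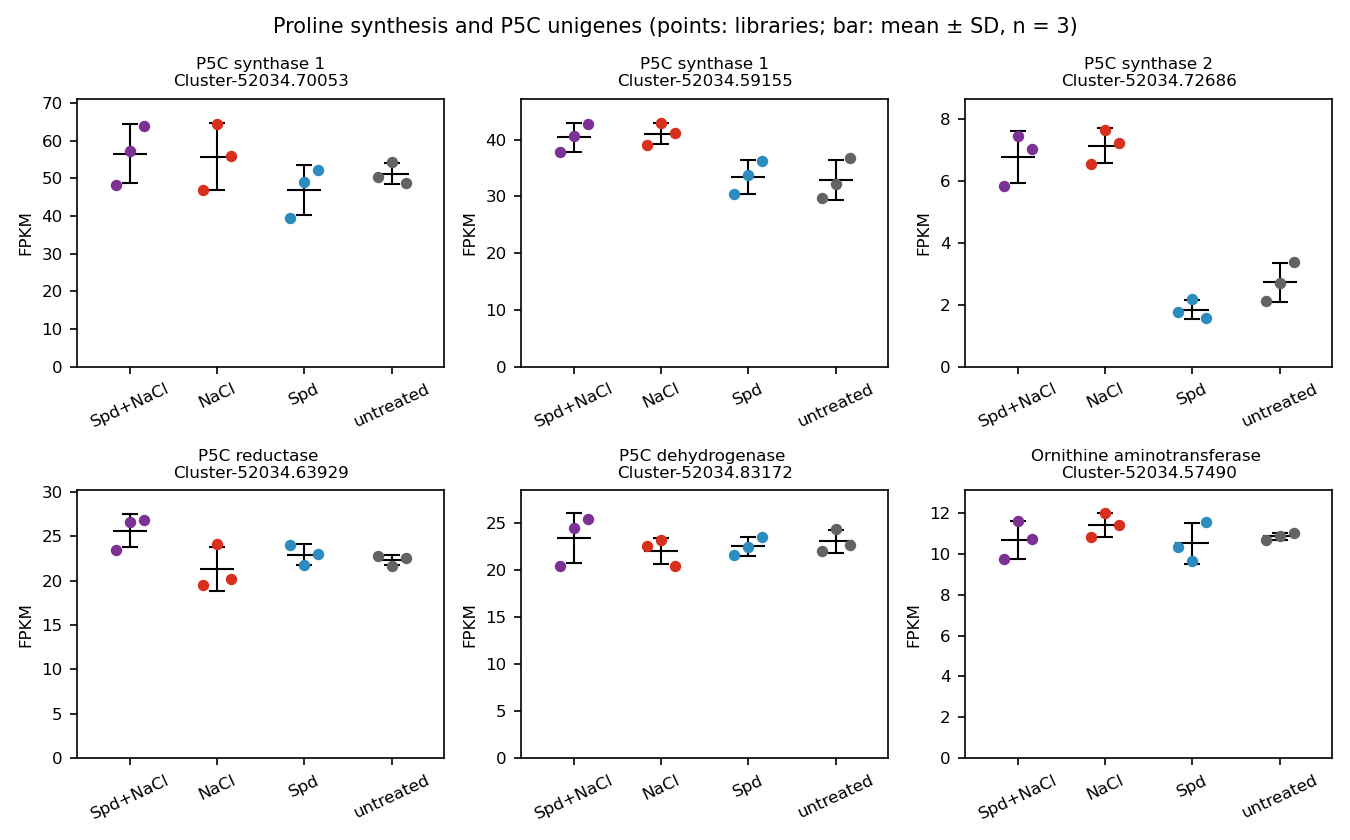
FPKM of the P5C synthase, P5C reductase, P5C dehydrogenase and ornithine aminotransferase unigenes in each library (points), with the mean and SD of the 3 libraries of each group. P5C synthase 2 lies between 5.84 and 7.64 FPKM in the 6 libraries with NaCl and between 1.57 and 3.37 FPKM in the 6 without.

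Set side by side, the synthesis and breakdown steps differed between groups. Summed over its 4 unigenes, P5C synthase stood at 104 ± 10.98 FPKM in Spd+NaCl, 105 ± 11.6 FPKM in NaCl, 82.6 ± 9.71 FPKM in Spd and 87.3 ± 4.20 FPKM in untreated roots (SD, n = 3 each). Proline dehydrogenase, likewise summed over 4 unigenes, stood at 19.6 ± 5.03 FPKM in Spd+NaCl, 121 ± 16.3 FPKM in NaCl, 58.0 ± 11.3 FPKM in Spd and 45.0 ± 6.17 FPKM in untreated roots. The ratio of the P5C synthase sum to the proline dehydrogenase sum was 3.63 to 6.67 in the Spd+NaCl libraries, 0.671 to 1.05 in NaCl, 1.13 to 2.01 in Spd and 1.74 to 2.10 in untreated libraries. The ratios of the Spd+NaCl libraries were all above those of the other groups and the NaCl ratios all below. Both sums add unigenes that may be pieces of 1 transcript, and a transcript in pieces is then counted more than once. The ratios are therefore to be compared between groups only, and a ratio of 1 does not mean equal transcript amounts. The sums and ratios are descriptions and were not tested.

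**Figure D3:**
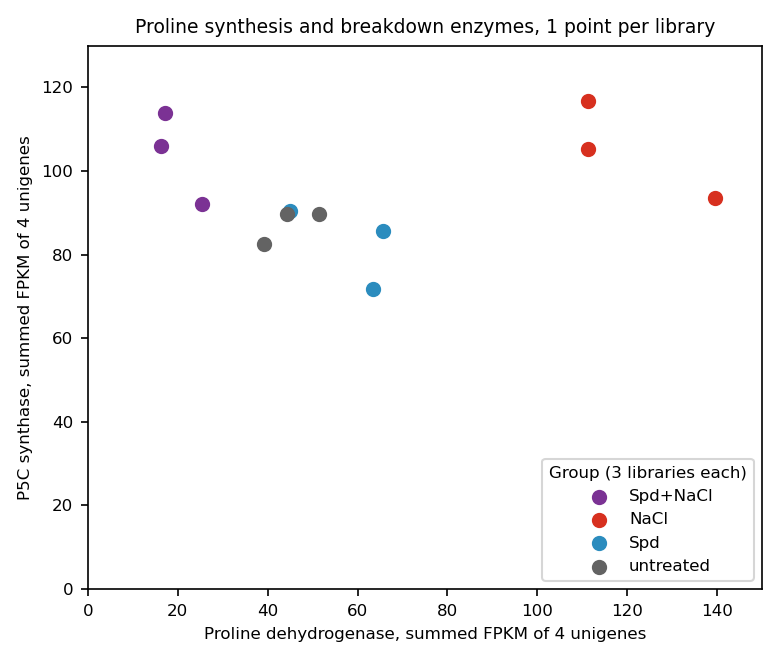
Summed FPKM of the 4 P5C synthase unigenes (vertical axis) against the summed FPKM of the 4 proline dehydrogenase unigenes (horizontal axis), 1 point per library. The Spd+NaCl libraries lie at the left and the NaCl libraries at the right, at similar P5C synthase sums of 104 ± 10.98 FPKM and 105 ± 11.6 FPKM (SD, n = 3).

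The steps around these were not called in any comparison by limma, and 1 of their 24 values had an unadjusted p below 0.05, that of P5C reductase in Spd+NaCl relative to NaCl. P5C reductase, which makes proline from P5C, was represented chiefly by Cluster-52034.63929, with 23.48, 26.57 and 26.85 FPKM in Spd+NaCl, 19.56, 24.12 and 20.16 FPKM in NaCl, 24.07, 21.79 and 22.96 FPKM in Spd and 22.78, 21.69 and 22.57 FPKM in untreated libraries. The Spd+NaCl and NaCl libraries overlapped through NaCl replicate 2, and the change between them was 0.26 ± 0.10 (limma, adjusted p = 0.0945). It was called without that library (0.35, adjusted p = 0.025) and when unigenes with rice hits alone were fitted (0.33, adjusted p = 0.0419), within a range of 0.025 to 0.601 over 22 alternatives.

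P5C dehydrogenase returns P5C to glutamate after proline dehydrogenase has acted. By the words of the rule it was a single unigene, Cluster-52034.83172. Its best NR hit is shared by 3 unigenes, and it makes up 43.9% of their summed FPKM (22.78 of 51.88 FPKM). The others did not meet the rule, and their values are not given here. Cluster-52034.83172 had 20.43, 24.52 and 25.41 FPKM in Spd+NaCl, 22.55, 23.17 and 20.44 FPKM in NaCl, 21.58, 22.5 and 23.55 FPKM in Spd and 22.1, 24.38 and 22.71 FPKM in untreated libraries. All 4 groups overlapped, and NaCl gave -0.06 ± 0.10 relative to untreated roots (limma, adjusted p = 0.72). The main ornithine aminotransferase unigene, Cluster-52034.57490, had 9.76, 11.61 and 10.72 FPKM in Spd+NaCl, 10.84, 12.03 and 11.41 FPKM in NaCl, 10.34, 9.64 and 11.59 FPKM in Spd and 10.68, 10.91 and 11.03 FPKM in untreated libraries. Its groups overlapped as well, and NaCl gave 0.06 ± 0.10 relative to untreated roots (limma, adjusted p = 0.709). The other 2 ornithine aminotransferase unigenes were under the limit for testing.

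Acetylornithine aminotransferase is an enzyme of the acetylated route from glutamate to ornithine and arginine. It was higher in NaCl roots than in untreated roots in 3 of its 4 unigenes, and 2 of them were lower in Spd+NaCl than in NaCl. Over all unigenes tested, 22.9% and 15.8% were called in these comparisons. Of the 4 unigenes, 3 share 1 best NR hit and may be pieces or variants of 1 gene, so they are not independent observations. Cluster-52034.76016 had 14.86, 13.39 and 17.08 FPKM in Spd+NaCl and 39.67, 39.17 and 40.59 FPKM in NaCl, then 14.31, 17.68 and 13.69 FPKM in Spd and 15.86, 12.84 and 16.53 FPKM in untreated libraries. The NaCl libraries were more than 20 FPKM above all others, and the other 3 groups overlapped. It rose by 1.35 ± 0.13 with NaCl relative to untreated roots (limma, adjusted p = 5.332e-05), and its change in Spd+NaCl relative to NaCl was -1.35 ± 0.13 (limma, adjusted p = 9.552e-05). Relative to untreated roots Spd+NaCl gave 0.00 ± 0.13, not called.

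Cluster-52034.54780 had 7.49, 5.64 and 6.61 FPKM in Spd+NaCl and 12.47, 12.46 and 13.51 FPKM in NaCl, then 6.39, 6.56 and 7.14 FPKM in Spd and 6.37, 6.51 and 6.08 FPKM in untreated libraries, with the NaCl libraries again apart from the rest. It rose by 0.92 ± 0.11 with NaCl (limma, adjusted p = 0.000188) and changed by -0.87 ± 0.11 in Spd+NaCl relative to NaCl (limma, adjusted p = 0.000429). The spermidine responses with and without salt differed by -1.36 ± 0.18 for Cluster-52034.76016 (limma, adjusted p = 0.00133) and by -0.94 ± 0.15 for Cluster-52034.54780 (limma, adjusted p = 0.00344).

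Cluster-52034.78373 had 4.99, 5.35 and 8.6 FPKM in Spd+NaCl and 18.1, 13.52 and 11.59 FPKM in NaCl, then 7.17, 4.44 and 3.17 FPKM in Spd and 2.14, 8.6 and 5.68 FPKM in untreated libraries. The NaCl libraries were the highest, and it rose by 1.37 ± 0.40 with NaCl (limma, adjusted p = 0.03). That call was lost under 8 of 21 alternatives, among them leaving out any 1 NaCl library or untreated replicate 1 or 3 and the replicate block (adjusted p = 0.0574), within a range of 0.0158 to 0.113. Its change of -1.09 ± 0.40 in Spd+NaCl relative to NaCl was not called (limma, adjusted p = 0.0932). It was called without untreated replicate 1 (adjusted p = 0.0408), within a range of 0.0408 to 0.259 over 21 alternatives. The remaining unigene of this enzyme was above 0 in 7 libraries, reached at most 8.12 FPKM in a library and was not called. Its change with NaCl was 1.89 ± 0.68 (limma, adjusted p = 0.0734). Without Spd replicate 2 that change was called (adjusted p = 0.0339, within a range of 0.0339 to 0.23 over 20 alternatives). So was its difference between the spermidine responses with and without salt (-3.59, adjusted p = 0.024, within a range of 0.024 to 0.189).

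Proline transporters carry proline, and in several plants glycine betaine, across the plasma membrane. None of the 5 tested unigenes was called in any of the 6 comparisons by limma, and 3 of their 30 values had an unadjusted p below 0.05. Summed over 7 unigenes, they stood at 29.4 to 36.5 FPKM in Spd+NaCl, 25.1 to 25.5 in NaCl, 31.0 to 36.0 in Spd and 30.8 to 33.1 in untreated libraries. The NaCl sums were thus the lowest as deposited. With median-ratio scaling the NaCl sums (26.4 to 28.7 FPKM) overlapped with Spd+NaCl (27.9 to 35.2 FPKM). They stayed below the Spd (30.9 to 35.4 FPKM) and untreated sums (30.0 to 32.4 FPKM). The sums were not tested. Cluster-52034.51891, matched to proline transporter 1, had 9.52, 9.91 and 10.12 FPKM in Spd+NaCl, 8.22, 9.04 and 7.56 FPKM in NaCl, 12.21, 9.22 and 12.9 FPKM in Spd and 9.83, 10.34 and 7.81 FPKM in untreated libraries. Cluster-52034.61341, with the same match, had 13.7, 5.6 and 10.24 FPKM in Spd+NaCl, 7.15, 5.38 and 7.18 FPKM in NaCl, 6.99, 8.82 and 8.03 FPKM in Spd and 8.9, 8.31 and 11.96 FPKM in untreated libraries. For the first, the Spd+NaCl libraries lay above the NaCl ones and the untreated libraries overlapped with both groups, and for the second the Spd+NaCl and NaCl libraries overlapped. Without Spd+NaCl replicate 2, which was its lowest Spd+NaCl library, Cluster-52034.61341 was called higher in Spd+NaCl than in NaCl (0.77, adjusted p = 0.0377, within a range of 0.0377 to 0.649 over 22 alternatives).

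Cluster-52034.51889, matched to probable proline transporter 2, had 5.41, 5.21 and 5.28 FPKM in Spd+NaCl, 4.82, 6.06 and 5.01 FPKM in NaCl, 1.61, 6.11 and 4 FPKM in Spd and 7.37, 6 and 4.6 FPKM in untreated libraries, with all groups overlapping. Cluster-52034.51888, also matched to probable proline transporter 2, had 5.36, 4.03 and 3.22 FPKM in Spd+NaCl, 2.94, 2.15 and 2.05 FPKM in NaCl, 6.03, 4.19 and 6.11 FPKM in Spd and 3.52, 3.02 and 3.31 FPKM in untreated libraries. Its Spd+NaCl libraries were all above its NaCl libraries, and the change of 0.61 ± 0.19 missed the threshold (limma, adjusted p = 0.0524). It was called under 4 of 20 alternatives, over which the adjusted p ran between 0.0228 and 0.165, namely rice hits alone (0.0228), the replicate block (0.0373) and leaving out Spd+NaCl replicate 3 (0.0397) or Spd replicate 2 (0.0418).

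Betaine aldehyde dehydrogenase was the most abundant of the activities, at a summed 377 ± 8.62 FPKM in Spd+NaCl, 308 ± 45.8 FPKM in NaCl, 359 ± 45.1 FPKM in Spd and 316 ± 25.3 FPKM in untreated roots (SD, n = 3 each, 9 unigenes). Most of it came from 3 unigenes. The 2 matched to betaine aldehyde dehydrogenase 2 were not called in any comparison. Cluster-52034.51691 had 152.93, 181.49 and 183.5 FPKM in Spd+NaCl, 123.08, 168.86 and 97.63 FPKM in NaCl, 190.09, 192.2 and 114.03 FPKM in Spd and 83.6, 138.14 and 133.39 FPKM in untreated libraries. The Spd+NaCl libraries were above the untreated ones and overlapped with NaCl and Spd, and the change relative to untreated roots was 0.57 ± 0.27 (limma, adjusted p = 0.276).

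Cluster-52034.74890 had 119.13, 111.62 and 113.14 FPKM in Spd+NaCl, 94.86, 106.76 and 95.3 FPKM in NaCl, 109.83, 108.89 and 103.67 FPKM in Spd and 103.25, 107.9 and 107.6 FPKM in untreated libraries. As deposited, its Spd+NaCl libraries were above those of every other group. The change relative to NaCl was 0.21 ± 0.07 (limma, adjusted p = 0.0552) and crossed the threshold under 8 of 22 alternatives, over which the adjusted p ran between 0.0108 and 0.81. Among these were leaving out NaCl replicate 2 (adjusted p = 0.0187), untreated replicate 1 (0.048) or Spd replicate 1 (0.0498) or 3 (0.0436). With median-ratio scaling the libraries stood at 114.9, 105.8 and 108.0 FPKM in Spd+NaCl and at 107.2, 110.2 and 102.8 FPKM in NaCl. The groups then overlapped, and the change was 0.04 (adjusted p = 0.81). Relative to untreated roots, NaCl gave -0.10 ± 0.07, which was not called (limma, adjusted p = 0.32). That change was called with quantile normalization (-0.28, adjusted p = 0.0219) and with rice hits alone (-0.20, adjusted p = 0.0458). Over 22 alternatives it ran between -0.28 and 0.04, and its adjusted p between 0.0219 and 0.77.

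The main unigene of betaine aldehyde dehydrogenase 1, Cluster-52034.82845, had 86.77, 83.18 and 81.54 FPKM in Spd+NaCl, 62.02, 71.26 and 67.39 FPKM in NaCl, 75.66, 81.25 and 82.18 FPKM in Spd and 93.8, 81.17 and 82.67 FPKM in untreated libraries. The 3 NaCl libraries were below all others. It fell by 0.36 ± 0.08 with NaCl relative to untreated roots (limma, adjusted p = 0.00888) and rose by 0.32 ± 0.08 in Spd+NaCl relative to NaCl (limma, adjusted p = 0.0208). The spermidine responses with and without salt differed by 0.43 ± 0.11 (limma, adjusted p = 0.0365). With median-ratio scaling none of the 3 was called (adjusted p = 0.0547, 0.237 and 0.205 in that order), over ranges of 0.00133 to 0.0789, 0.00529 to 0.237 and 0.0173 to 0.205. Summed by best NR hit, where this unigene makes up 92.5% of the sum, none of the 3 was called either (limma, adjusted p = 0.0789, 0.152 and 0.147). The second call was also lost without NaCl replicate 1 (adjusted p = 0.0708) or 3 (0.0532), and the third under 11 of 22 alternatives, among them the replicate block (adjusted p = 0.0719) and leaving out NaCl replicate 1 or 3, untreated replicate 1, Spd replicate 1 or any 1 Spd+NaCl library.

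**Figure D4:**
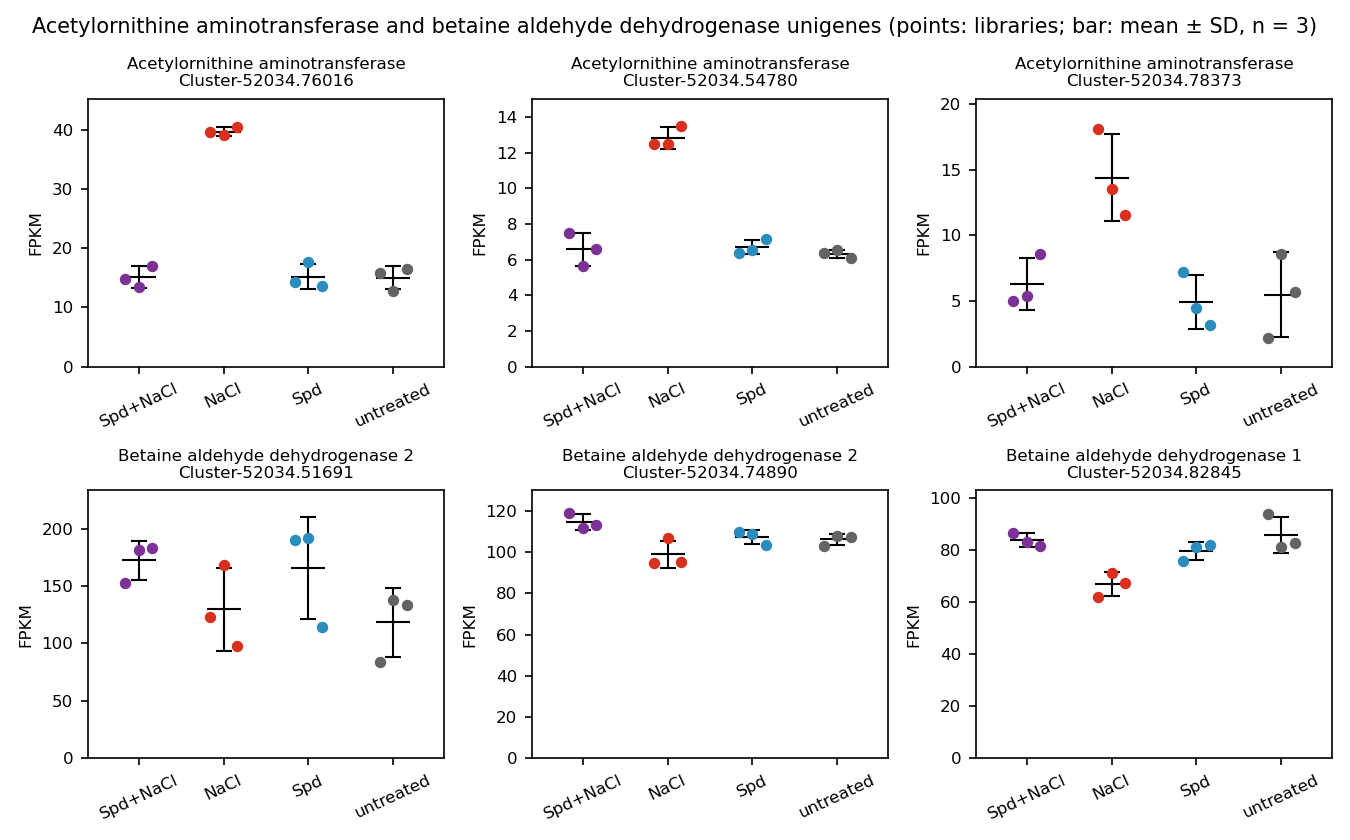
FPKM of 3 acetylornithine aminotransferase unigenes (top) and 3 betaine aldehyde dehydrogenase unigenes (bottom) in each library (points), with the mean and SD of the 3 libraries of each group. In the top row the NaCl libraries stand above all others, at 39.17 to 40.59 FPKM in Cluster-52034.76016, and in the lower right panel the NaCl libraries of betaine aldehyde dehydrogenase 1 lie lowest, at 62.02 to 71.26 FPKM.

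A low-abundance betaine aldehyde dehydrogenase 1 unigene, Cluster-52034.78327, went the other way and is named after its values were seen. It had 2.1, 0.61 and 0.63 FPKM in Spd+NaCl, 3.57, 4.29 and 4.12 FPKM in NaCl, 1.64, 2.05 and 2.49 FPKM in Spd and 1.84, 1.65 and 2.13 FPKM in untreated libraries. The NaCl libraries were the highest. It rose by 0.80 ± 0.25 with NaCl (limma, adjusted p = 0.0422) and changed by -1.31 ± 0.25 in Spd+NaCl relative to NaCl (limma, adjusted p = 0.00572). It shares its best NR hit with Cluster-52034.82845, which makes up 92.5% of the sum over that hit, against 2.64% for Cluster-52034.78327, so the summed fit is no check of it. The rise with NaCl was lost under 12 of the other 20 alternatives, over which the adjusted p ran between 0.00557 and 0.114, among them the replicate block (adjusted p = 0.0712) and leaving out any 1 NaCl, untreated or Spd library. The change in Spd+NaCl relative to NaCl was lost when only those 2 groups were fitted (adjusted p = 0.0659, within a range of 0.000291 to 0.0659). The spermidine responses with and without salt differed by -1.39 ± 0.35 (limma, adjusted p = 0.031), also lost under 12 of the 20, over which the adjusted p ran between 0.00166 and 0.0712, among them the replicate block (0.0595) and leaving out any 1 NaCl or untreated library, Spd replicate 2 or 3 or Spd+NaCl replicate 2 or 3. By group mean, other low unigenes with this NR hit were also higher in NaCl than in untreated roots. They were Cluster-52034.78138 (4.11 against 2.22 FPKM), Cluster-52034.78139 (2.17 against 0.28 FPKM) and Cluster-52034.76791 (0.81 against 0.02 FPKM). Cluster-52034.78940 was lower (0 against 0.55 FPKM). Of these only Cluster-52034.78138 was tested, and it was not called (limma, adjusted p = 0.093, 0.0352 to 0.258 over 20 alternatives).

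Counted over all 26 tested unigenes, 10 were higher and 1 lower in NaCl than in untreated roots, 42.3% against the 22.9% of all unigenes tested and the 27.1% of those with rice hits. In Spd+NaCl relative to NaCl, 1 was higher and 7 lower, 30.8% against 15.8% of all unigenes and 19.3% of rice hits. That split was none higher and 7 lower with median-ratio scaling, where 12.5% of all unigenes were called. It was 4 higher and 7 lower with rice hits alone, where 28.1% of all unigenes fitted were called. The median change over the 26 was 0.12 for NaCl relative to untreated roots, beside -0.13 over all unigenes, and -0.08 for Spd+NaCl relative to NaCl, beside 0.14 over all unigenes. Of the 11 unigenes called with NaCl, 4 were proline dehydrogenases, 3 acetylornithine aminotransferases, 2 P5C synthases and 2 betaine aldehyde dehydrogenases. Since several unigenes can stem from 1 gene, these counts are not counts of genes.

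Spermidine without salt gave no call among the 26, where 2.55% of all unigenes (2.05% higher, 0.509% lower) and 0.294% of rice hits were called. At an unadjusted p below 0.05 the limma fit had 2 of the 26. Between Spd+NaCl and untreated roots 1 was higher (P5C synthase 2) and 1 lower (Cluster-52034.64020), 7.69% against 5.37% of all unigenes (2.38% higher, 2.99% lower). With rice hits alone 1 was higher and 2 were lower, where 4.32% of all unigenes fitted were called. Relative to Spd roots, Spd+NaCl had 1 higher and 2 lower, 11.5% against 6.93% of all unigenes (2.6% higher, 4.33% lower). This last count was 6 without Spd+NaCl replicate 1, where 6.32% of all unigenes were called. The 3 unigenes so added included the proline dehydrogenases Cluster-52034.51060 (-1.54, adjusted p = 0.0426) and Cluster-52034.64019 (-1.10, adjusted p = 0.0197). The difference between the spermidine responses was called for 8 of the 26, 1 above 0 and 7 below it, 30.8% against 10.9% of all unigenes. With median-ratio scaling it was called for none above and 7 below, beside 9.7% of all unigenes.

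**Figure D5:**
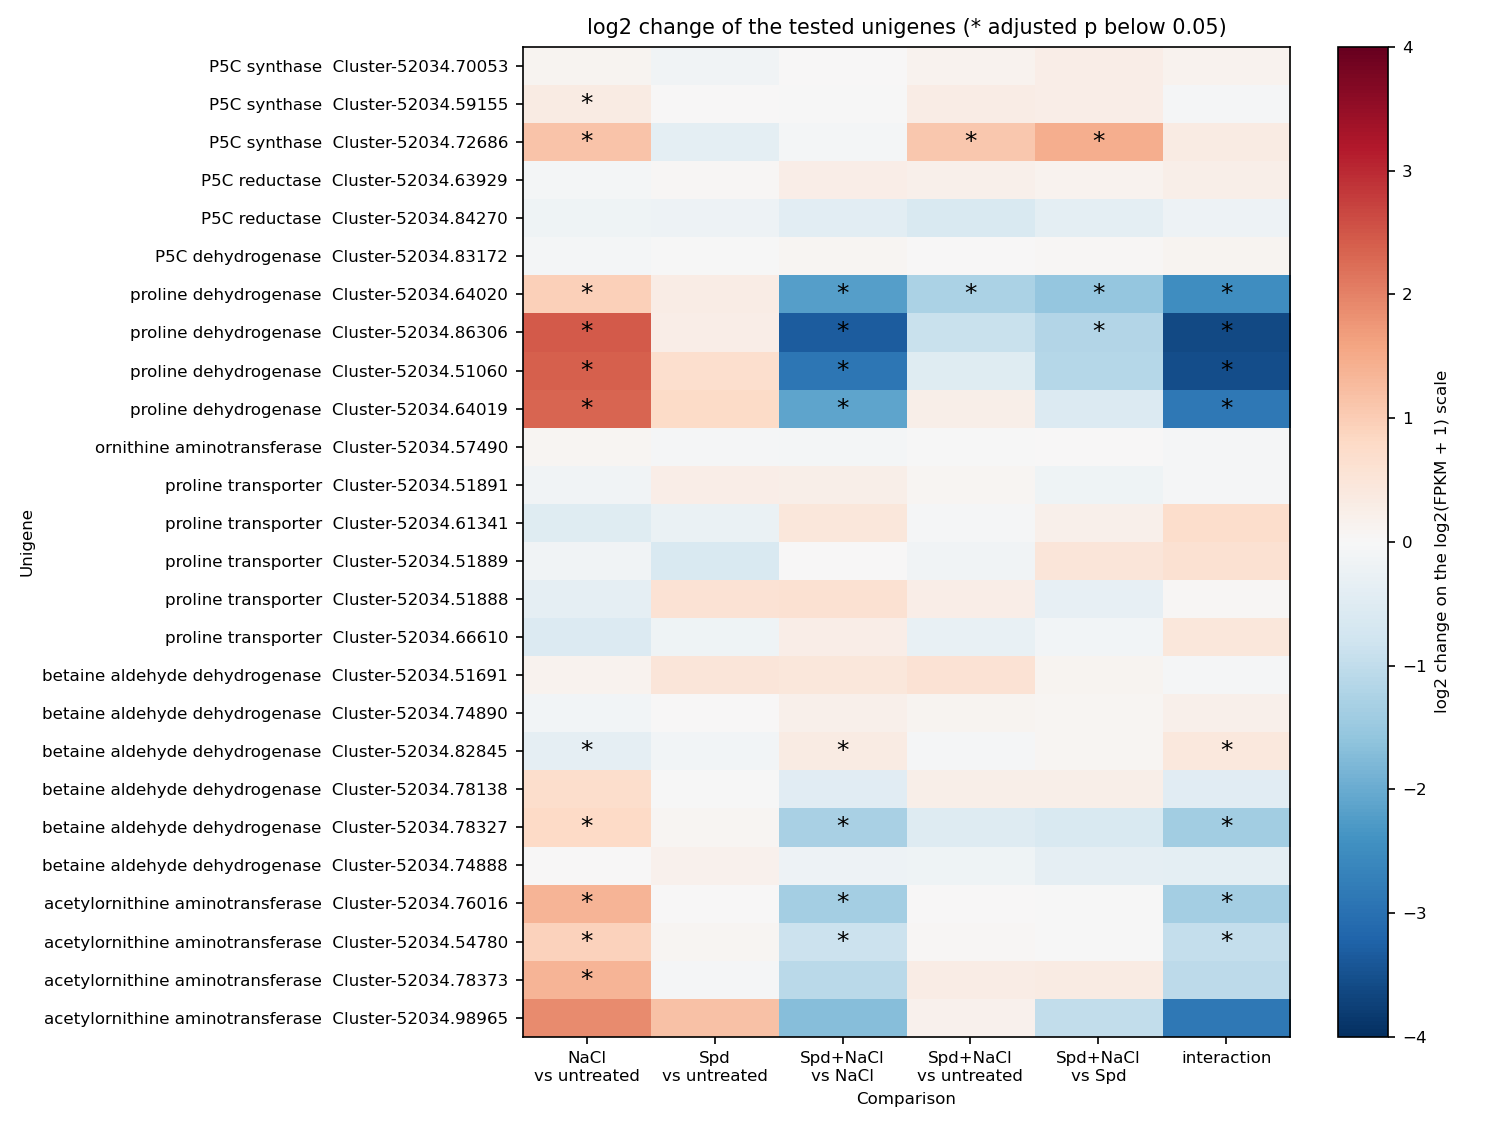
Change of each tested unigene (rows, ordered by role) in each comparison (columns) on the log2(FPKM + 1) scale, red for higher and blue for lower in the group named first, with an asterisk where the adjusted p was below 0.05. The proline dehydrogenase rows are red in NaCl relative to untreated roots (0.94 to 2.45) and blue in Spd+NaCl relative to NaCl (-2.10 to -3.34), and the transporter rows carry no asterisk.

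The genes around the pathway were taken by their annotation as 6 lists, with 226 unigenes tested in all. With NaCl 37 of the 226 were higher and 29 lower than in untreated roots, 43 and 18 with median-ratio scaling, and 33 and 41 with rice hits alone. In Spd+NaCl 18 were higher and 25 lower than in NaCl, 6 and 29 with median-ratio scaling, and 40 and 25 with rice hits alone. The split between higher and lower unigenes thus moved with the scaling, and the counts per list below are those of the values as deposited. Their shares called are to be read against 22.9% of all unigenes (27.1% of rice hits) for NaCl relative to untreated roots and 15.8% (19.3%) for Spd+NaCl relative to NaCl. In the same order, the fit of rice hits alone called 34.7% and 28.1% of its unigenes. Median-ratio scaling called 21% and 12.5% of all unigenes. Counts under those settings are to be read against these shares.

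Glutamate supply was taken by the words glutamine synthetase, glutamate synthase and glutamate dehydrogenase and had 79 unigenes, of which 32 were tested. The words also took 7 folylpolyglutamate synthase unigenes, 2 of them tested, and N-acetylglutamate synthases of arginine synthesis, and 6 unigenes, 4 of them tested, stand in both this list and the arginine list. With NaCl, 9 were higher and 7 lower than in untreated roots, 50% of the 32, with a median change of -0.11. In Spd+NaCl 2 were higher and 5 lower than in NaCl, 21.9%, with a median of 0.19, and with median-ratio scaling none was higher and 6 were lower, with rice hits alone 6 and 5. The split with NaCl was 11 higher and 3 lower with median-ratio scaling. Glutamate dehydrogenase interconverts glutamate and 2-oxoglutarate. Its unigene Cluster-52034.63734 had 18.79, 19.58 and 19.16 FPKM in Spd+NaCl, 81.3, 65 and 71.58 FPKM in NaCl, 27.82, 24.08 and 27.87 FPKM in Spd and 20, 26.34 and 23.4 FPKM in untreated libraries. The NaCl libraries stood apart, and the change in Spd+NaCl relative to NaCl was -1.86 ± 0.12 (limma, adjusted p = 9.084e-06). Cluster-52034.44467, with the same description, rose by 3.05 ± 0.56 with NaCl relative to untreated roots (limma, adjusted p = 0.00292).

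The arginine and ornithine list had 16 of 21 unigenes tested, with 5 higher and 1 lower in NaCl than in untreated roots (37.5%) and 2 higher and 3 lower in Spd+NaCl than in NaCl (31.2%). With median-ratio scaling the last split was none higher and 4 lower, and with rice hits alone 5 and 3. With NaCl it was 5 higher and none lower with median-ratio scaling and 4 and 3 with rice hits alone. Arginase 1, which releases ornithine from arginine, stood at 10.4 ± 1.59 FPKM in Spd+NaCl, 18.3 ± 1.47 FPKM in NaCl, 9.37 ± 0.91 FPKM in Spd and 11.3 ± 0.90 FPKM in untreated roots (Cluster-52034.87247). Its change in Spd+NaCl relative to NaCl was -0.77 ± 0.12 (limma, adjusted p = 0.00201). Acetylglutamate kinase, a step before acetylornithine aminotransferase, rose by 0.66 ± 0.11 with NaCl relative to untreated roots (Cluster-52034.92834, limma, adjusted p = 0.00213).

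The list named choline supply had 60 of 100 unigenes tested. Choline is the precursor of glycine betaine, but the list was taken by annotation and also holds choline kinase, which uses choline. The counts therefore do not separate supply of choline from its use. With NaCl 15 were higher and 4 lower than in untreated roots, 31.7% of the 60. In Spd+NaCl 1 was higher and 12 were lower than in NaCl, 21.7% of the 60. The splits were 13 higher and 6 lower, and 3 and 12, with rice hits alone. The medians of these changes were 0.12 and -0.06. Phospholipase D alpha 2 splits choline from phosphatidylcholine. Its unigene Cluster-52034.69754 had 12.99, 11.38 and 11.16 FPKM in Spd+NaCl, 92.96, 83.99 and 95.96 FPKM in NaCl, 14.93, 19.25 and 13.63 FPKM in Spd and 12.08, 16.61 and 17.06 FPKM in untreated libraries. The NaCl libraries were far above the rest, and Spd+NaCl changed by -2.84 ± 0.15 relative to NaCl (limma, adjusted p = 5.415e-06). A choline kinase-like unigene, Cluster-52034.38156, rose by 2.86 ± 0.24 with NaCl relative to untreated roots (limma, adjusted p = 2.624e-05). A choline kinase phosphorylates free choline and so does not supply it for glycine betaine.

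Broad amino acid carriers had 65 of 76 unigenes tested, with 7 higher and 9 lower in NaCl than in untreated roots (24.6%) and 7 higher and 6 lower in Spd+NaCl than in NaCl (20%). Both shares were near those of all unigenes, and the last split was 3 higher and 6 lower with median-ratio scaling and 12 and 6 with rice hits alone. The split with NaCl was 7 higher and 6 lower with median-ratio scaling. Cluster-52034.47095, matched to amino acid permease 8, had 311.87, 29.9 and 104.46 FPKM in Spd+NaCl, 1027.65, 906.35 and 888.05 FPKM in NaCl, 115.9, 72.11 and 59.64 FPKM in Spd and 44.06, 54.53 and 25.61 FPKM in untreated libraries. It rose by 4.54 ± 0.66 with NaCl relative to untreated roots (limma, adjusted p = 0.000763) and changed by -3.22 ± 0.66 in Spd+NaCl relative to NaCl (limma, adjusted p = 0.00869). Cluster-52034.85607, matched to amino acid permease 3, rose by 4.73 ± 0.59 with NaCl (limma, adjusted p = 0.000286) and changed by -3.33 ± 0.59 in Spd+NaCl relative to NaCl (limma, adjusted p = 0.00393). Spd+NaCl replicate 1 was the highest of its group for both permeases, and without it the changes in Spd+NaCl relative to NaCl were -4.04 and -4.12. Both were lost as calls when only the NaCl and Spd+NaCl libraries were fitted (adjusted p = 0.0885 and 0.0569, within ranges of 0.000682 to 0.0885 over 22 alternatives and 0.000124 to 0.0569 over 21).

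Proline use and release (prolyl hydroxylases, prolyl-tRNA synthetases and proline peptidases) had 25 of 38 unigenes tested and 1 higher in each of these comparisons, 4% and so below the share of all unigenes. Its call in Spd+NaCl relative to NaCl, the prolyl 4-hydroxylase unigene Cluster-52034.104963 (0.48, limma, adjusted p = 0.0414), was lost under 12 of 22 alternatives, over which the adjusted p ran between 0.0137 and 0.19, among them median-ratio scaling, the replicate block (0.0684), leaving out any 1 Spd+NaCl library, NaCl replicate 1 or 2 or Spd replicate 1 or 3. With rice hits alone 7 of the 25 were higher in Spd+NaCl than in NaCl, where that fit called 28.1% of all its unigenes. With NaCl 1 was then higher and 3 were lower than in untreated roots, beside 34.7% of all its unigenes. Other aldehyde dehydrogenases had 32 of 54 unigenes tested, with 3 higher and 8 lower in NaCl than in untreated roots (34.4%) and 5 higher and none lower in Spd+NaCl than in NaCl (15.6%, the share of all unigenes being 15.8%). By limma this last comparison had 9 of the 32 at an unadjusted p below 0.05. With median-ratio scaling 3 were higher and none lower. Cluster-52034.70028, an aldehyde dehydrogenase of family 2, had 171.1, 183.04 and 183.54 FPKM in Spd+NaCl against 155.72, 149.58 and 146.2 FPKM in NaCl. Its change of 0.25 ± 0.07 (limma, adjusted p = 0.0303) was lost under 6 of 22 alternatives, namely median-ratio scaling (0.08, adjusted p = 0.622), no filter on low values and leaving out NaCl or Spd+NaCl replicate 2 or 3, within a range of 0.00857 to 0.622. Cluster-52034.70372, matched to methylmalonate-semialdehyde dehydrogenase, changed by 0.24 ± 0.07 (limma, adjusted p = 0.0448), a call lost under 10 of 22 alternatives, within a range of 0.0114 to 0.728. Among these were median-ratio scaling (0.06, adjusted p = 0.728), the replicate block (0.0791) and leaving out untreated replicate 3 or any 1 NaCl or Spd+NaCl library.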

How the data were processed

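Poly-A RNA from 12 rice root libraries was sequenced, and values are listed per unigene. The submitters' processing notes name CASAVA 1.8, Bowtie2 and RSEM; for the genome build and the assembler, the sources used here give no name. The authors deposited 1 table with FPKM per unigene and library and with annotation from NR, Swissprot, TrEMBL and Pfam. FPKM is relative to the library total, so a change in abundant transcripts shifts the others, and RSEM divides reads between similar unigenes, so values of near-identical unigenes are uncertain. No read counts were used, no common step was recovered from the low values, and no counting interval is given.

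FPKM was taken as log2(FPKM + 1) for the unigenes averaging 1 FPKM or more over all libraries (65836 of 182689). Group means of 4 groups were fitted to all 12 libraries with limma 3.58.1 in R 4.3.3, with empirical Bayes moderation and a mean trend in the variances. Tests were 2-sided, with Benjamini-Hochberg adjustment within each comparison and a threshold of 0.05. The procedure was tested on simulated data. The members, gene lists and markers were chosen with earlier results of these data known. Values in every library are given for members averaging 5 FPKM or more in some group and for the most abundant member of each role. Of the neighbours, at most the 2 called unigenes with the largest change were named per list in the NaCl against untreated and Spd+NaCl against NaCl comparisons, where a group mean reached 5 FPKM. Figures were drawn with matplotlib 3.10.9. No 2 libraries shared more than 3.61% of their values above 0. Alternatives were another pseudocount, other filters, scalings and variance models, sums by best NR hit (not counted for a unigene making up under 50% of its sum), the replicate block, fits of only the groups compared and leaving out each library.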

Additional observations from a re-analysis of the deposited data

Results flagged for a closer look

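For 8 of the 26 tested unigenes the change with spermidine under NaCl differed from the change with spermidine without NaCl, by limma's test of that difference. This was 30.8%, beside 10.9% of all unigenes tested and 12.1% of rice hits. On the log2 scale the difference was -2.48, -3.61, -3.54 and -2.86 for the proline dehydrogenase unigenes Cluster-52034.64020, Cluster-52034.86306, Cluster-52034.51060 and Cluster-52034.64019, which may be pieces or variants of 1 gene. It was -1.36 and -0.944 for the acetylornithine aminotransferase unigenes Cluster-52034.76016 and Cluster-52034.54780. For betaine aldehyde dehydrogenase 1 it was 0.428 in Cluster-52034.82845 and -1.39 in Cluster-52034.78327. The calls of these last unigenes were lost under 11 of 22 and 12 of 20 alternatives.

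Outside the rice hits, 2 ornithine aminotransferase unigenes whose best NR hit is from the orchid Dendrobium catenatum had signal in Spd roots above the untreated level. Cluster-52034.110364 averaged 13.9 FPKM in Spd (16.19, 5.21 and 20.16 FPKM) against 0, 0 and 0.31 FPKM in untreated libraries. Cluster-52034.105719 averaged 11.8 FPKM in Spd (15.89, 3.8 and 15.78 FPKM) against 0, 0 and 0.05 FPKM in untreated libraries. Both were listed at 0 in every NaCl and Spd+NaCl library. Whether these transcripts came from rice was not tested. Unigenes with rice hits made up 76.5 to 79.2% of the FPKM in Spd+NaCl libraries and 80.4 to 81.6% in NaCl. They made up 73.5 to 77.4% in Spd and 73.8 to 78.2% in untreated libraries.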

How the results depend on the processing

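Of 32 calls among the tested unigenes, 21 held under every alternative counted and none turned direction. Of the 124 values not called, 15 were called under some alternative. The sum over the best NR hit is not counted here for a unigene making up under 50% of it, since it follows another unigene. Those sums gave -0.22 for NaCl relative to untreated roots, 0.18 for Spd+NaCl relative to NaCl and 0.28 for the difference between spermidine responses at Cluster-52034.78327 (2.64% of its sum) and 0.21 for Spd+NaCl relative to NaCl at Cluster-52034.74888 (0.975%), all opposite in sign to the unigene's own value. Summing by NR hit left 16 sums and 6 instead of 11 calls with NaCl, 5 instead of 8 in Spd+NaCl relative to NaCl and 4 instead of 8 for the difference. Calls in Spd+NaCl relative to untreated roots were 1 instead of 2 with only the groups compared. They were also 1 under the filter of 5 FPKM on the mean, which left P5C synthase 2 (mean of 4.61 FPKM) untested. Leaving out 1 library gave 8 to 12 calls with NaCl, 0 to 0 with Spd, 7 to 10 in Spd+NaCl relative to NaCl, 2 to 3 relative to untreated roots, 2 to 6 relative to Spd and 6 to 8 for the difference. Neighbours called with NaCl, 66 in all, were 61 with median-ratio scaling, 74 with rice hits alone, 32 summed by NR hit and 49 to 70 without 1 library. Those in Spd+NaCl relative to NaCl, 43 in all, were 35 with median-ratio scaling, 65 with rice hits alone, 28 with only the groups compared, 25 summed and 29 to 46 without 1 library. The share of all unigenes called also differed with rice hits alone, at 34.7% with NaCl and 28.1% in Spd+NaCl relative to NaCl. Median-ratio scaling moved the median of all unigenes by 0.108 (NaCl relative to untreated roots), -0.136 (Spd+NaCl relative to NaCl) and -0.152 (the difference). With it, role sums in NaCl roots were 23.8 FPKM for P5C dehydrogenase, 12.4 FPKM for ornithine aminotransferase (10.6 FPKM untreated), 27.4 FPKM for proline transporters and 76.9 FPKM for acetylornithine aminotransferase, and 359.9 FPKM for betaine aldehyde dehydrogenase in Spd+NaCl. Deviations from the group mean had correlations of -0.109 to 0.147 between same-numbered libraries and -0.1 to 0.0978 between libraries of different number. Such correlations cannot decide whether the numbers pair the libraries, and the labels name no pairing. The replicate block gave 9, 0, 9, 2, 3 and 6 calls in the 6 comparisons in the order of the heat map, and 61 and 38 for the neighbours. The cause of these shifts was not tested. With FPKM and no depth, low unigenes near 1 FPKM are the least reliable.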

Other observations

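The same enzyme names were found on 85 unigenes whose best NR hit is not from Oryza, of which 13 had a mean of at least 1 FPKM. The most abundant, a P5C synthase unigene with a Brachypodium distachyon hit (Cluster-52034.69805, chosen after its values were seen), had 45.21, 45.09 and 42.63 FPKM in Spd+NaCl, 44.85, 45.85 and 48.66 FPKM in NaCl, 38.83, 47.34 and 40.02 FPKM in Spd and 54.53, 46.23 and 46.54 FPKM in untreated libraries. It lies outside the rule and is not part of the P5C synthase sums. Several low unigenes with hits to green algae were highest in untreated libraries: Cluster-52034.22096, an ornithine aminotransferase with a Coccomyxa hit, was listed at 0 in every Spd+NaCl library and had 26.32, 6.99 and 7.24 FPKM in untreated ones.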
